A study of Rattus norvegicus with 6 samples.

Results

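Trophic factors are secreted proteins that keep neurons and glia alive, and most act through receptors on the cell surface. The genes described here are 58 such factors and receptors, chosen by name. All 58 were found, each in a single row, among the 19623 gene symbols of the deposited table. Fibroblast growth factors (FGFs), neurotrophins, insulin-like growth factors (IGFs), epidermal growth factor (EGF) and hepatocyte growth factor (HGF) bind receptor tyrosine kinases. Glial cell line-derived neurotrophic factor (GDNF) and its relatives bind anchored GFRα proteins that pass the signal to the kinase Ret, whereas ciliary neurotrophic factor (CNTF) and leukaemia inhibitory factor (LIF) signal through gp130. In the retina such factors are known for slowing the loss of photoreceptors, and Müller glia are known both to respond to them and to release them.

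RNA was sequenced from the retinas of rats as 6 samples, 2 in each of 3 groups, all taken at postnatal day 60 after surgery at postnatal day 21. Long Evans rats formed a group with sham surgery. Rats of the Royal College of Surgeons (RCS) strain formed the others, 1 with sham surgery and 1 with human neural progenitor cells (hNPCs) placed under the retina. RCS rats lose photoreceptors because of a defect in Mertk, the receptor with which the pigment epithelium takes up outer segments. Sham eyes received the carrier medium, and the graft-bearing portion of the neural retina, or its counterpart in sham eyes, was used. The labels do not say whether the samples of a group came from separate animals. The deposited table has 1 FPKM value per gene (fragments counted for a gene, divided by transcript length and sequencing depth) and names no sample or group. No comparison between strains or between grafted and sham eyes was therefore possible, and the values below compare genes with one another within that table. They are for rat genes, and whether reads from the human graft were removed is not given in the sources used here. Values in parentheses after an FPKM are the deposited lower and upper bounds. Ratios between genes carry a 95% interval that covers counting error only, not the spread between animals or libraries.

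The table had the make-up of retina, with all 5 rod genes checked between 518 and 6641 FPKM, all 5 Müller glia genes between 58.4 and 617 FPKM and all 5 ganglion cell genes between 14.5 and 144 FPKM. Markers of other cells and tissues were present as well. At 1 FPKM or more were 4 of 5 pigment epithelium genes, 5 of 6 microglial genes and 5 of 6 endothelial and pericyte genes. So were 2 of 4 astrocyte genes, all 4 lens genes and 2 of 5 myelinating glia genes, beside 61.0% of all symbols. Levels within a list varied widely. They ran from 1.60 (Mip) to 427 FPKM (Cryaa) in lens and from 0.270 (Best1) to 152 FPKM (Ttr) in pigment epithelium. The astrocyte gene Pax2 was listed at 0.

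Trophic factor and receptor genes were mostly present at low to moderate levels. Of the 58, 45 reached 1 FPKM (77.6%), against 61.0% of all symbols, and 14 reached 10 FPKM (24.1%), against 28.9% of all symbols. Another 9 lay above 0 and under 1 FPKM, and 4 were listed at 0 (Fgf5, Gfra3, Gfra4 and Lif), which is 6.90% against 23.6% of all symbols. The 58 genes were chosen with earlier results of these data known, and of 32 other ligands found 16 were listed at 0. The low share at 0 therefore describes this list and not the wider families. The median level was 3.36 FPKM, beside 3.17 FPKM over all symbols. With genes listed at 0 left out, the median was 3.52 FPKM, below the 6.37 FPKM of all symbols above 0. By role, 24 of 34 secreted factors and 17 of 20 receptors reached 1 FPKM, with median levels of 1.91 and 4.29 FPKM. The 4 intracellular FGF homologues all did, with a median of 13.4 FPKM. In bulk RNA a low level can stand for few cells that use a gene or for little RNA in each cell, and these cannot be told apart.

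**Figure D1:**
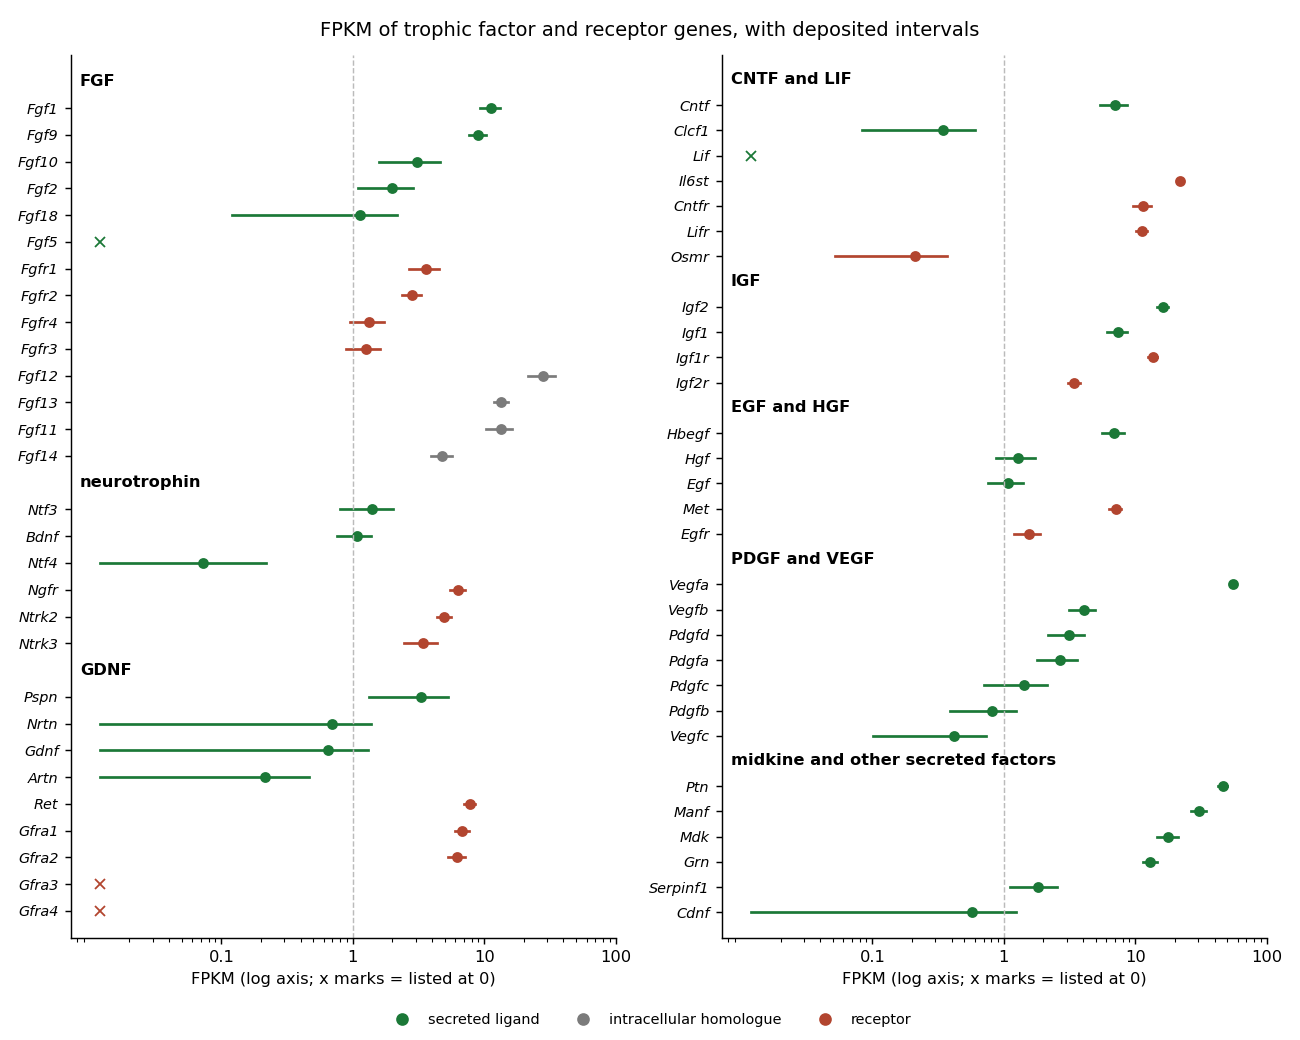
FPKM of each of the 58 genes on a log axis, grouped by family and coloured by role; points are the deposited values, bars the deposited lower and upper bounds (drawn to the position of the crosses where the bound is 0), crosses genes listed at 0, and the dashed line is 1 FPKM. Vegfa and Ptn stand farthest to the right, at 55.4 and 46.2 FPKM, and Ntf4 is the lowest gene above 0, at 0.072 FPKM.

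**Figure D2:**
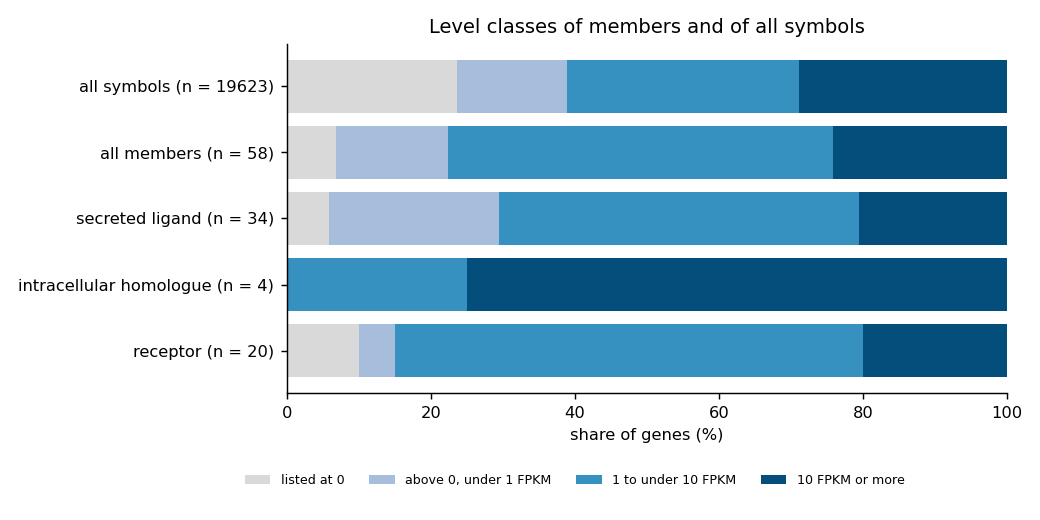
Share of genes (%) in 4 level classes for all 19623 symbols, the 58 genes and their 3 roles; each bar adds up to all genes of its set. The class listed at 0 is narrower for the 58 genes than for all symbols (6.90% against 23.6%), and so is the class at 10 FPKM or more (24.1% against 28.9%). The 58 genes were chosen with earlier results of these data known.

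A few genes held much of the signal. Vegfa, Ptn and Manf together made up 31.0% of the summed FPKM of the 58 genes. Vegfa, the main growth factor for blood vessels, stood at 55.4 FPKM (52.1 to 58.6), above 95.9% of all symbols. Its row (ENSRNOG00000019598) spans positions 16232414 to 16247655 of chromosome 9 in genome build rn5. Ptn (pleiotrophin), a heparin-binding factor of neurons and glia, stood at 46.2 FPKM (42.8 to 49.7), above 94.7% of symbols, on chromosome 4 at 64063953 to 64156273 (ENSRNOG00000011946). Manf, a factor of the endoplasmic reticulum that is released under stress, stood at 30.6 FPKM (26.7 to 34.5), on chromosome 8 at 114982001 to 114985213 (ENSRNOG00000014201). The deposited intervals of Vegfa, Ptn and Manf did not overlap, so their order exceeds counting error. Further down the order became fine-grained: of the 53 neighbouring pairs among the 54 genes above 0, 50 had overlapping intervals. The exceptions were Vegfa above Ptn, Ptn above Manf, and Igf2 above Igf1r.

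Secreted FGFs summed to 26.3 FPKM over 6 genes and FGF receptors to 9.01 FPKM over 4, with medians of 2.54 and 2.07 FPKM. Among secreted FGFs, Fgf1 (acidic FGF) led at 11.2 FPKM (9.25 to 13.1), followed by Fgf9 at 8.93 FPKM (7.63 to 10.2). Their ratio of 1.25 (0.997 to 1.57) did not differ from 1 beyond counting error. Fgf2 (basic FGF), long studied for photoreceptor rescue, was at 2.00 FPKM (1.10 to 2.89), and Fgf1 was 5.60 times as high (3.49 to 9.46). Fgf10 was at 3.09 FPKM (1.59 to 4.59) and Fgf18 at 1.14 FPKM (0.121 to 2.16), while Fgf5 was listed at 0. The 4 receptor genes summed to 9.01 FPKM. Fgfr1, at 3.61 FPKM (2.68 to 4.54), and Fgfr2, at 2.81 FPKM (2.35 to 3.27), did not differ beyond counting error (ratio 1.28, 0.932 to 1.74). Fgfr4, at 1.33 FPKM (0.946 to 1.71), and Fgfr3, at 1.25 FPKM (0.883 to 1.62), lay lower, and Fgfr2 was 2.25 times Fgfr3 (1.61 to 3.20). Fgf1 exceeded Fgfr1, a receptor it binds, 3.09-fold (2.27 to 4.28), and Fgf9 exceeded its receptor Fgfr3 7.13-fold (5.14 to 10.1). Fgf2 went the other way, with Fgfr1 1.81 times as high (1.07 to 3.16). For Fgf10 with Fgfr2 and Fgf18 with Fgfr3 the intervals of the ratio held 1 (0.550 to 1.60 and 0.437 to 3.53, receptor over ligand).

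Fgf11 to Fgf14 are relatives of the FGFs that stay inside the cell and bind voltage-gated sodium channels. They summed to 59.6 FPKM, against 26.3 FPKM for the 6 secreted FGFs. Fgf12 was highest, at 28.0 FPKM (21.7 to 34.3), on chromosome 11 at 78947042 to 79210052 (ENSRNOG00000001931), and was 2.10 times Fgf11 (1.53 to 2.93). Fgf13, at 13.5 FPKM (11.9 to 15.0), and Fgf11, at 13.3 FPKM (10.3 to 16.3), did not differ beyond counting error (ratio 1.01, 0.787 to 1.32). Fgf14 stood at 4.80 FPKM (3.96 to 5.65), and Fgf11 was 2.77 times as high (2.06 to 3.69). This order holds per length only. By the fragments that the intervals imply, Fgf13 led with 299, before Fgf14 with 129, Fgf12 with 79 and Fgf11 with 78. Of the sodium channel genes listed as their partners, 4 of 7 reached 1 FPKM (57.1%, against 61.0% of all symbols). Highest were Scn1a at 7.20 FPKM (6.60 to 7.80), Scn8a at 5.57 FPKM (5.02 to 6.12) and Scn2a1 at 4.18 FPKM (3.70 to 4.66).

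Neurotrophin receptors exceeded the neurotrophins. Bdnf (brain-derived neurotrophic factor), a survival factor of ganglion cells, was at 1.07 FPKM (0.763 to 1.37), and Ntf3 (neurotrophin 3) at 1.41 FPKM (0.794 to 2.02). The ratio of Ntf3 to Bdnf was 1.32 (0.758 to 2.26). Ntf4 was at 0.072 FPKM (0 to 0.217), which the interval puts at a single fragment. Ngfr, the p75 receptor shared by all neurotrophins, stood at 6.31 FPKM (5.49 to 7.13). Ntrk2 (TrkB, the receptor of Bdnf and Ntf4) was at 4.97 FPKM (4.37 to 5.56) and Ntrk3 (TrkC, the receptor of Ntf3) at 3.40 FPKM (2.45 to 4.36). The order of the 3 receptors exceeded counting error, with Ngfr 1.27 times Ntrk2 (1.06 to 1.52) and Ntrk2 1.46 times Ntrk3 (1.08 to 2.00). Ngfr exceeds Ntrk2 only per length, since Ntrk2 had more implied fragments (278 against 237). Ntrk2 was 4.66 times Bdnf (3.45 to 6.49), Ngfr 5.92 times Bdnf (4.36 to 8.28) and Ntrk3 2.41 times Ntf3 (1.43 to 4.24). With Ntf4 the ratio of Ntrk2 was 68.7, and the single fragment gave it an interval from 12.2 to 2724.

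The GDNF family had receptors with scarce ligands in the Gfra1 and Gfra2 branches, and receptors listed at 0 in the others. Ret, the shared signalling kinase, was at 7.76 FPKM (7.01 to 8.52), Gfra1, which binds GDNF, at 6.79 FPKM (5.97 to 7.60), and Gfra2, which binds neurturin, at 6.21 FPKM (5.33 to 7.09). These 3 lay close together, with Ret 1.14 times Gfra1 (0.981 to 1.34) and Gfra1 1.09 times Gfra2 (0.907 to 1.32), and neither ratio differed from 1 beyond counting error. Gdnf was at 0.652 FPKM (0 to 1.30) and Nrtn (neurturin) at 0.692 FPKM (0 to 1.38), each an implied 4 fragments. Gfra1 was 10.4 times Gdnf (4.02 to 38.5), Ret 11.9 times Gdnf (4.62 to 43.9) and Gfra2 8.97 times Nrtn (3.45 to 33.3). Gfra3 and Gfra4, the receptors of artemin and persephin, were both listed at 0. Artn (artemin) was at 0.216 FPKM (0 to 0.465, an implied 3 fragments). Pspn (persephin) was at 3.32 FPKM (1.32 to 5.32), which in so short a gene rested on an implied 11 fragments. No ratio is given against a gene listed at 0.

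The gp130 cytokine receptors were among the higher genes of the set, apart from Osmr. Il6st (gp130), the signalling subunit shared by CNTF, LIF and interleukin-6, stood at 22.0 FPKM (21.0 to 23.0), on chromosome 2 at 63332283 to 63361404 (ENSRNOG00000013963). It rested on an implied 1966 fragments, more than any other of the 58 genes. Cntfr, the CNTF-binding subunit, was at 11.4 FPKM (9.55 to 13.2), and Lifr, the LIF receptor subunit, at 11.3 FPKM (10.2 to 12.3). The Cntfr to Lifr ratio was 1.01 (0.836 to 1.21), while Il6st was 1.96 times Lifr (1.76 to 2.18). Osmr, the oncostatin M receptor subunit, was at 0.212 FPKM (0.052 to 0.372), and Il6st was 104 times as high (50.4 to 259). Of the ligands, Cntf stood at 7.01 FPKM (5.41 to 8.61), Clcf1 (cardiotrophin-like cytokine factor 1, a second ligand of Cntfr) at 0.344 FPKM (0.084 to 0.604), and Lif was listed at 0. Cntf was 20.4 times Clcf1 (9.43 to 52.4). Cntfr exceeded Cntf 1.62-fold (1.23 to 2.16) and Clcf1 33.0-fold (15.7 to 83.5). Osm and Il6 were listed at 0, and Ctf1 (cardiotrophin 1) was at 2.17 FPKM (1.40 to 2.94). Cntf was thus 3.23 times Ctf1 (2.11 to 5.04), the next of these ligands.

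Both IGF ligands were present with their receptors. Igf2 stood at 16.2 FPKM (14.7 to 17.8), on chromosome 1 at 222722921 to 222730430 (ENSRNOG00000020369), and was 2.21 times Igf1, at 7.35 FPKM (6.10 to 8.60; ratio 1.82 to 2.70). Igf1r, the signalling receptor of both, was at 13.6 FPKM (12.6 to 14.6). It was 1.46 times Insr, the insulin receptor gene (1.31 to 1.63), and 3.95 times Igf2r (3.48 to 4.49). Igf2r, which clears Igf2 and sorts lysosomal enzymes, was at 3.44 FPKM (3.08 to 3.80). Igf1r exceeded Igf1 1.85-fold (1.54 to 2.23), whereas Igf2 exceeded Igf1r 1.20-fold (1.06 to 1.35) and Igf2r 4.73-fold (4.11 to 5.46). Igf2 exceeds Igf1r only per length, since Igf1r had more implied fragments (749 against 432).

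The span of Igf2 also holds the row of a microRNA gene, Mir483, which shows how FPKM behaves in short rows. Its hairpin is printed to show how short the row is, with the 2 mature microRNAs in capitals. Sequences are from RefSeq, build GRCr8, minus strand of chr1:207247859-207247931.
Mir483: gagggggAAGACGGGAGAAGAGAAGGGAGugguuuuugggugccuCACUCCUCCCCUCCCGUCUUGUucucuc
This row of 73 bases was listed at 87.2 FPKM, above every one of the 58 genes, with a deposited interval of 0 to 262 that implies 1 fragment. A high FPKM in so short a row is therefore no measure of abundance. Of the 58 genes, 4 have a span that another row overlaps (Igf2, Igf1r, Mdk and Pdgfd). The other rows overlapping Igf1r, Mdk and Pdgfd lay between 0 and 0.510 FPKM. Whether the counting used the strand is not given in the sources used here, so reads in shared bases cannot be assigned with certainty.

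In the EGF and HGF group the order of ligand and receptor depended on the ligand. Hbegf (heparin-binding EGF-like growth factor) was at 6.88 FPKM (5.59 to 8.16), 6.39 times Egf (4.46 to 9.12), which was at 1.08 FPKM (0.758 to 1.40). Their receptor gene Egfr was at 1.54 FPKM (1.18 to 1.90). Hbegf exceeded Egfr 4.46-fold (3.31 to 6.06), and for Egf the ratio of Egfr to ligand was 1.43 (0.970 to 2.09). Met, the HGF receptor, stood at 7.07 FPKM (6.31 to 7.83) and its ligand Hgf at 1.29 FPKM (0.866 to 1.71), so that Met was 5.48 times Hgf (3.90 to 7.92). Met was also 4.59 times Egfr (3.57 to 5.97).

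Vegfa dominated the PDGF and VEGF ligands, with 81.6% of their summed FPKM. Vegfb was at 4.04 FPKM (3.13 to 4.95), and Vegfa was 13.7 times as high (10.9 to 17.4). Vegfc, a factor of lymphatic vessels, was at 0.416 FPKM (0.102 to 0.731). Kdr, the main signalling receptor of Vegfa, was at 52.2 FPKM (50.5 to 54.0), and the ratio of Vegfa to Kdr was 1.06 (0.991 to 1.13). Flt1, the receptor shared by Vegfa and Vegfb, was at 7.44 FPKM (6.71 to 8.17), so that Kdr was 7.02 times Flt1 (6.34 to 7.79). Vegfa exceeded Flt1 7.44-fold (6.64 to 8.34), while Flt1 exceeded Vegfb 1.84-fold (1.44 to 2.37). Flt4, the receptor of Vegfc, was at 0.026 FPKM (0 to 0.092), an implied number under 1 fragment, and no ratio is given. Kdr stood well above genes that mark endothelium: it was 27.3 times Pecam1 (19.7 to 38.0), 13.9 times Cldn5 (9.11 to 22.6), 33.7 times Tek (27.1 to 42.5) and 52.2 times Cdh5 (35.5 to 80.0). Flt1 was 3.89 times Pecam1 (2.76 to 5.48). Which cells held the Kdr transcripts was not tested.

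The PDGF ligands were low, and their receptors were higher for Pdgfb and Pdgfc. Pdgfd was at 3.10 FPKM (2.16 to 4.05), Pdgfa at 2.69 FPKM (1.79 to 3.59), Pdgfc at 1.42 FPKM (0.711 to 2.13) and Pdgfb at 0.811 FPKM (0.392 to 1.23). Of their neighbouring ratios only that of Pdgfa to Pdgfc, 1.89 (1.04 to 3.70), exceeded counting error. Pdgfra, known from retinal astrocytes, was at 3.08 FPKM (2.68 to 3.48) and Pdgfrb, known from pericytes, at 2.34 FPKM (1.96 to 2.73). Pdgfra was 2.16 times Pdgfc (1.31 to 3.85) and Pdgfrb 2.89 times Pdgfb (1.70 to 5.29). The intervals for Pdgfra with Pdgfa (0.792 to 1.65, receptor over ligand) and Pdgfrb with Pdgfd (0.534 to 1.09) held 1.

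The remaining secreted factors included several of the highest genes of the set and several near the floor. Mdk (midkine), the paralogue of Ptn, stood at 17.8 FPKM (14.5 to 21.2), and Ptn was 2.59 times as high (2.13 to 3.19). Both exceeded Ptprz1 and Alk, the receptors they were paired with, while syndecans were not among the pairs. Ptn was 13.9 times Ptprz1 (12.2 to 15.9), a receptor phosphatase at 3.32 FPKM (2.95 to 3.70). It was 42.0 times Alk (32.3 to 55.3), a kinase at 1.10 FPKM (0.822 to 1.38). Mdk was 5.36 times Ptprz1 (4.29 to 6.67) and 16.2 times Alk (11.8 to 22.4). Ptprz1 is a long gene, and it had more implied fragments than Mdk (313 against 114). Manf and its paralogue Cdnf differed most widely. Cdnf was at 0.577 FPKM (0 to 1.24), an implied 3 fragments, and Manf was 53.0 times as high (17.9 to 259). Grn (progranulin), a lysosomal and secreted factor of microglia and neurons, was at 13.0 FPKM (11.3 to 14.7). Sort1 (sortilin), its uptake receptor, was at 56.0 FPKM (53.2 to 58.8), 4.30 times Grn (3.75 to 4.94). Serpinf1 (pigment epithelium-derived factor) was at 1.82 FPKM (1.12 to 2.51). The 5 marker genes of the pigment epithelium, which is known to secrete it, ranged from 0.270 FPKM in Best1 to 152 FPKM in Ttr and lay on both sides of this value. Pnpla2, a receptor proposed for this factor, was at 6.37 FPKM summed over 2 rows, 3.51 times Serpinf1 (2.29 to 5.53). With the higher of those rows alone the ratio was 1.81 (1.16 to 2.91).

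Across families, receptors exceeded their ligands more often than the reverse. Of 41 ligand and receptor pairs set down, 25 had both genes among the 58 and the others took a partner from outside. The receptor was higher in 25 pairs and the ligand in 16. A ratio could be formed in 34 pairs, and in 27 of them its interval excluded 1, with the receptor higher in 17 and the ligand in 10. In 7 pairs the interval held 1. Of the 7 pairs without a ratio, 6 had a gene listed at 0 and the other was Vegfc with Flt4. Where the interval excluded 1, the receptor led for Bdnf, Ntf3, Ntf4, Gdnf, Nrtn, Cntf, Clcf1, Igf1, Hgf, Vegfb, Pdgfb, Pdgfc, Fgf2, Serpinf1 and Grn. The ligand led for Fgf1, Fgf9, Igf2, Hbegf, Ptn, Mdk and Vegfa with Flt1. Pairs share genes, so they are not independent, and several were chosen with only a main receptor in view.

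**Figure D3:**
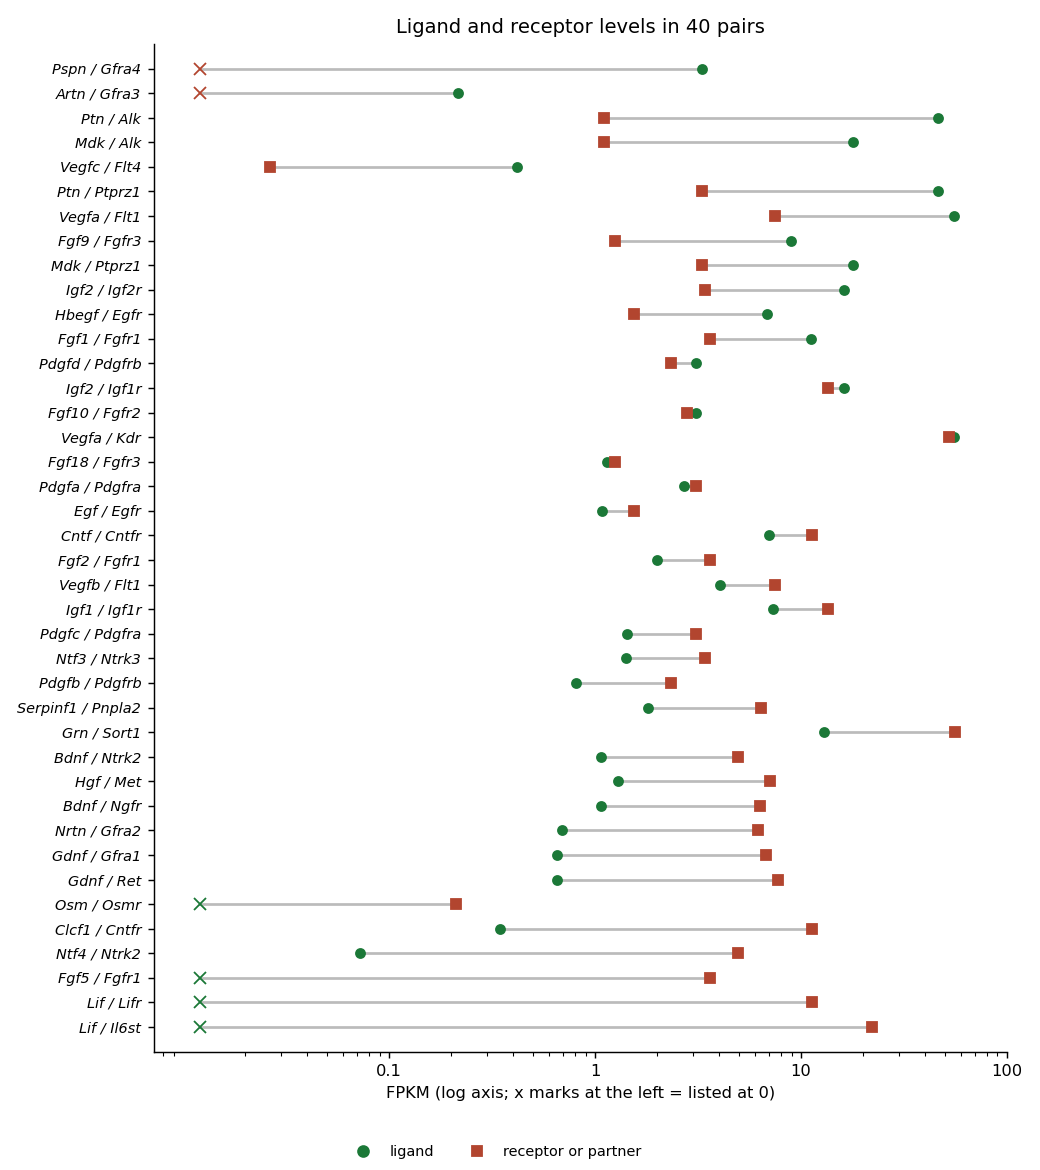
FPKM on a log axis of ligand (circles) and receptor (squares) in the 40 pairs with at least 1 of the 58 genes, joined by a line and ordered by their ratio, with crosses for genes listed at 0. The receptor lies to the right in the 24 lower pairs, led by Lif with Il6st, and the ligand in the 16 upper ones; Vegfa and Kdr nearly coincide.

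The wider pathway genes fell into lists of different level. Of 32 other ligands found, 8 reached 1 FPKM (25.0%, against 61.0% of all symbols), of which 2 reached 10 FPKM (28.9% of all symbols did). Another 16 had a value of 0, as did 23.6% of all symbols, and the median was 0.031 FPKM. Of 42 other receptors and co-receptors, 32 reached 1 FPKM (76.2%, against 61.0% of all symbols), and the median was 2.71 FPKM. Highest were Bsg (basigin), at 390 FPKM (378 to 403), Ncam1 (an adhesion molecule that also binds GDNF), at 89.0 FPKM (84.7 to 93.2), and Nptn (neuroplastin), at 81.0 FPKM (74.2 to 87.9). Syndecans, heparan sulphate carriers that hold FGFs and Ptn at the cell surface, were on the same list of receptors and co-receptors. Sdc4 was at 29.9 FPKM (27.8 to 31.9), Sdc3 at 16.5 FPKM (15.1 to 18.0) and Sdc2 at 12.3 FPKM (11.2 to 13.4). Sdc1 was far lower, at 0.465 FPKM (0.232 to 0.697). Of 38 adaptors, kinases and feedback inhibitors, 33 reached 1 FPKM (86.8%, against 61.0% of all symbols), with a median of 3.66 FPKM. Jak1, the kinase bound to gp130, led at 29.3 FPKM (27.8 to 30.8), before Ptpn11, the phosphatase SHP2, at 27.2 FPKM (26.0 to 28.5) and Grb2, an adaptor of receptor kinases, at 18.0 FPKM (16.4 to 19.6). Stat3, the transcription factor downstream of gp130, was at 12.3 FPKM (11.3 to 13.3), while its feedback inhibitor Socs3 was at 1.02 FPKM (0.188 to 1.86), an implied 6 fragments.

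The fragment number behind a value varied widely within the set. It is implied by the deposited interval if that spans 2 standard errors on each side. The 54 genes above 0 had an implied 10459 fragments together, 24 of them 100 or more each and 9 of them 10 or fewer. A single fragment was worth 0.0095 FPKM in Igf2r and 0.356 FPKM in Fgf12. Fgf12, at 28.0 FPKM, therefore rested on about 79 fragments and Fgf14, at 4.80 FPKM, on about 129. Values under 1 FPKM such as those of Gdnf, Nrtn, Artn, Cdnf and Ntf4 have intervals that reach 0, and no order among them was detectable at this depth.

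**Figure D4:**
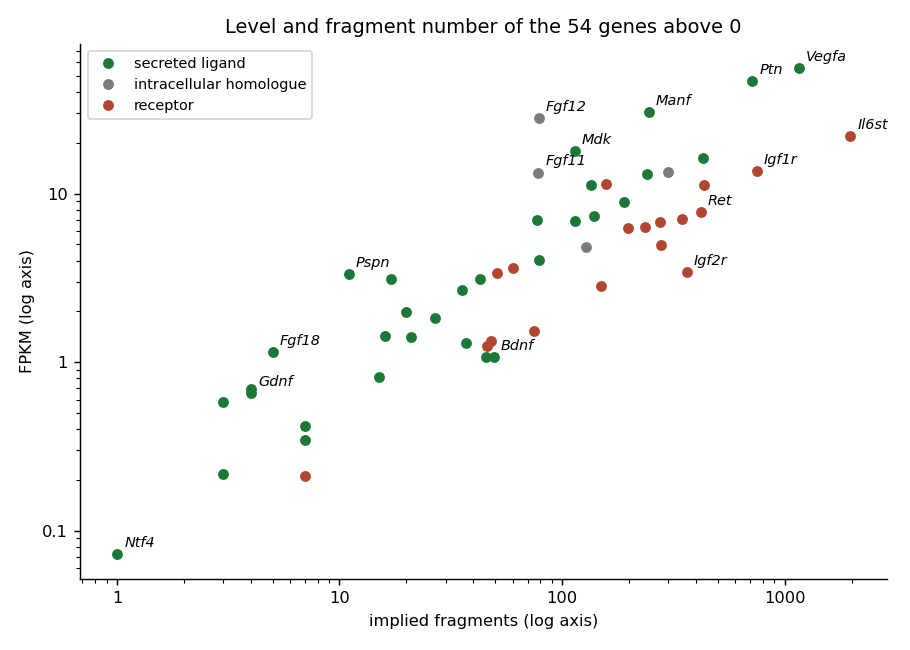
FPKM against the implied fragment number of the 54 genes above 0, both on log axes, coloured by role. Il6st lies farthest right, at 1966 fragments, and Fgf12 lies far above the genes of like fragment number, at 28.0 FPKM from about 79 fragments.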

How the data were processed

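RNA from 6 retinal samples (3 groups of 2) was made into Ion Total RNA-seq libraries, per the labels' protocols. The authors deposited 1 gene table of FPKM with lower and upper bounds, in Cufflinks format per the file headers; the submitters' processing notes name Cufflinks 2.0.8 and build rn5. The sources used here do not state the aligner, annotation release, confidence level or pooling. No column names a sample, so the planned limma comparisons were not run and no test or replicate error is given.

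Symbols were matched ignoring case, which 2 of the 58 genes needed, and rows sharing a symbol were summed. Members, pairs and lists were chosen with earlier results of these data known; the ratios between members of a family and with markers were chosen after their values were seen. All members and both genes of each pair could be named, and of each pathway list the 3 highest genes. Others named outside these (among them syndecans, Stat3, Socs3, Ctf1, Il6, Insr and the cell type markers) were chosen after their values were seen. A deposited bound was read as 2 standard errors, giving an implied fragment number, which lay within 0.02 of a whole number in 29 of the 39 members with up to 200 fragments. That reading is an assumption for larger numbers and for members that missed a whole number, among them Fgf12, Fgf14, Bdnf, Fgfr1 and Ntrk3. Ratio intervals are exact binomial (Clopper-Pearson, 95%) on implied fragments rounded to whole numbers. They were run on simulated data built with the same reading of the bounds and with counting error only. That run checks the calculation and cannot test the reading or other sources of error. The implied depth was 6124332 fragments over 26406 rows. Protein identities were not analysed here, and a few genes outside the 58 are counted but not reported here by name. Python 3.11.15, numpy 2.4.6, pandas 2.3.3, scipy 1.17.1 and matplotlib 3.10.9 were used.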

Additional observations from a re-analysis of the deposited data

How the results depend on the processing

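Of the 58 genes, 45 reached 1 FPKM. Under 8 other settings this count moved less than 1.5 times (34 at a minimum of 2 FPKM, 49 at 0.5 FPKM or with the upper bounds, 37 with the lower bounds), but it was 23 at a minimum of 5 FPKM. The median of 3.36 FPKM ranged from 2.40 with the lower bounds to 4.45 with the upper bounds, and became 9.81 when all rows were rescaled to the same sum as TPM, which multiplies every gene alike. The receptor was higher in 23 to 30 pairs when all 41 were read in another way, with 30 by implied fragments, not divided by length. Of the 27 pair ratios whose interval excluded 1, 2 changed direction by implied fragments and none under the other settings that gave a value. The log2 ratio of Igf1r to Igf2 became 0.80 and that of Ptprz1 to Mdk 1.46. Ratios within families were not part of this check. By implied fragments some of them also change direction, among them Ngfr to Ntrk2 and Fgf11 to Fgf14. The first 2 results have no counterpart in fragments, since the minimum and the median are in FPKM. No paired analysis was possible because no FPKM column belongs to a sample or replicate; leaving out replicates, other pseudocounts and filters on low values for the group comparisons were not run for the same reason. Few implied fragments limit what can be said of the lowest genes. The 4 genes listed at 0 carry the status OK in the deposited table.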

Other observations

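Some factors outside the 58 genes stood far above them. The gene of rod-derived cone viability factor, Nxnl1, was at 127 FPKM (118 to 137). Bsg, its cell-surface partner on cones, was 3.06 times as high (2.83 to 3.32). Psap (prosaposin), which binds progranulin and is itself described as neurotrophic, was at 196 FPKM (190 to 201), 15.0 times Grn (13.2 to 17.2). Among binding proteins and processing enzymes, 16 of 23 reached 1 FPKM (69.6%, against 61.0% of all symbols), with a median of 4.72 FPKM. Igfbp7, a binding protein of the IGF family, led at 109 FPKM (103 to 115), followed by Htra1, a secreted protease, at 55.5 FPKM (52.4 to 58.6). Kdelr1, a receptor that retains proteins such as Manf in the endoplasmic reticulum, was at 27.7 FPKM (25.0 to 30.4). Of the convertase genes listed, Pcsk2 was at 11.2 FPKM (9.95 to 12.5) and Furin at 9.35 FPKM (8.49 to 10.2). Both were chosen after their values were seen. Pcsk1, Pcsk5, Pcsk6 and Pcsk7 lay lower, between 1.56 and 5.50 FPKM.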
